A study of Drosophila melanogaster with 4 samples.

Results

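The Enhancer of split basic helix-loop-helix (bHLH) repressors are 7 related genes that stand in a single complex on chromosome arm 3R of Drosophila melanogaster. They were looked up, by exact symbol, in the authors' deposited table of genes with Prospero binding peaks. That table names 1510 unique gene identifiers, and 6 of the 7 repressors were among them. Over all protein-coding genes of the chromosome arms the share in the table was 7.76%, and it was 4.24% among those no longer than the longest repressor gene. The member not among the entries analysed here was E(spl)m3-HLH.

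The profiles came from targeted DamID, in which a bacterial adenine methylase (Dam) fused to a chromatin protein marks GATC sites near the places where that protein sits. The 4 samples were Dam-Pros-FL (full-length Prospero), Dam-Pros-ΔN7 (a Prospero form of that name), Dam-HP1a (the heterochromatin protein) and Dam alone, with 3 biological replicates of each according to the series' design. All 4 were expressed under GMR71C09-GAL4 with Gal80ts, a temperature-sensitive repressor of GAL4, in brains dissected from larvae of the 3rd instar. The driver sets the cells in which the fusions are made, and the Dam alone control carries the same driver and repressor. Which cells the signal came from was not measured here. The authors' title for the peak gene list names neural precursors and neurons of the larval brain. The list does not tell these cells apart.

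The table gives a name, an identifier and a symbol for each gene. It holds no peak height, peak position or value per replicate, so the read depth is unknown and replicate error could not be estimated. The sources used here do not name the Prospero form behind it, and the HP1a and Dam alone profiles were not analysed separately. Every statement below is a state, in the table or not in it, and no test between conditions was possible. The labelled tissue could not be checked against markers, because the table reports binding and not expression.

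Notch signalling acts through the cleaved intracellular part of the receptor, which joins the DNA-binding protein Su(H) and the co-activator Mastermind to switch on target genes. The Enhancer of split bHLH genes are the classic targets. Their products bind DNA, recruit the co-repressor Groucho through a short motif at the end of the protein, and repress proneural genes. In larval neuroblasts, the neural stem cells of the fly brain, Notch and these repressors help to keep the cells in a self-renewing state. Prospero is a homeodomain factor that is handed to the neuroblast's daughter cell, where it ends self-renewal and starts differentiation.

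The members are given in their map order, counted from the E(spl)mdelta-HLH end of the complex. The first 3 places were held by bHLH genes, and all 3 were in the table. E(spl)mdelta-HLH (FBgn0002734, place 1), used in the eye as a marker of one photoreceptor fate, was in the table. E(spl)mgamma-HLH (FBgn0002735, place 2), the member best known from expression in neuroblasts, was in the table. E(spl)mbeta-HLH (FBgn0002733, place 3), known from its broad Notch-dependent expression in imaginal discs, was in the table too. This end of the complex thus had no missing bHLH gene.

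E(spl)m3-HLH (place 7), a Notch-responsive repressor that stands near the middle, was the only bHLH member not in the table. Neither its symbol nor any older name of it in the RefSeq gene table occurred in either name column. The last 3 bHLH genes stood at the Groucho end and were again all in the table. They were E(spl)m5-HLH (FBgn0002631, place 9), E(spl)m7-HLH (FBgn0002633, place 11) and E(spl)m8-HLH (FBgn0000591, place 12). These repressors are known from proneural clusters, and E(spl)m8-HLH is the gene altered in the dominant mutation that named the complex. Each of the 6 had 1 entry, a gene identifier, with the same text in the name and symbol columns, and none had a transcript entry.

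The share over all protein-coding genes rested on 1082 of 13946. On arm 3R alone the share was 7.59% (258 of 3398), and over all annotated genes of the arms it was 8.45% (1504 of 17807). The bHLH members are short genes, with annotated spans from 769 bp (E(spl)m8-HLH) to 1305 bp (E(spl)m3-HLH) and a median of 978 bp, against a median of 2161 bp over all protein-coding genes. Among the 4031 protein-coding genes no longer than 1305 bp, 171 were in the table. The member not in the table was thus the longest of the 7. Every member, E(spl)m3-HLH included, has a single RefSeq transcript. Whether length or the number of transcripts bears on the state was not tested.

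The members were listed together with most of the genes between them. The complex from E(spl)mdelta-HLH to gro holds 13 protein-coding genes, and 11 of these were in the table. Besides the 6 bHLH genes, they were 3 of the 4 Bearded-family genes, the Kazal-type protein gene Kaz-m1 (FBgn0002578, place 5) and gro (FBgn0001139, place 13). Bearded-family proteins bind and inhibit Neuralized, a ubiquitin ligase that activates Notch ligands in the sending cell. E(spl)malpha-BFM (place 4), E(spl)m2-BFM (place 6) and E(spl)m6-BFM (place 10) were in the table, and E(spl)m4-BFM (place 8) was not. The gene gro, whose product the bHLH proteins recruit, was thus listed with 6 of the 7 repressors.

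**Figure D1:**
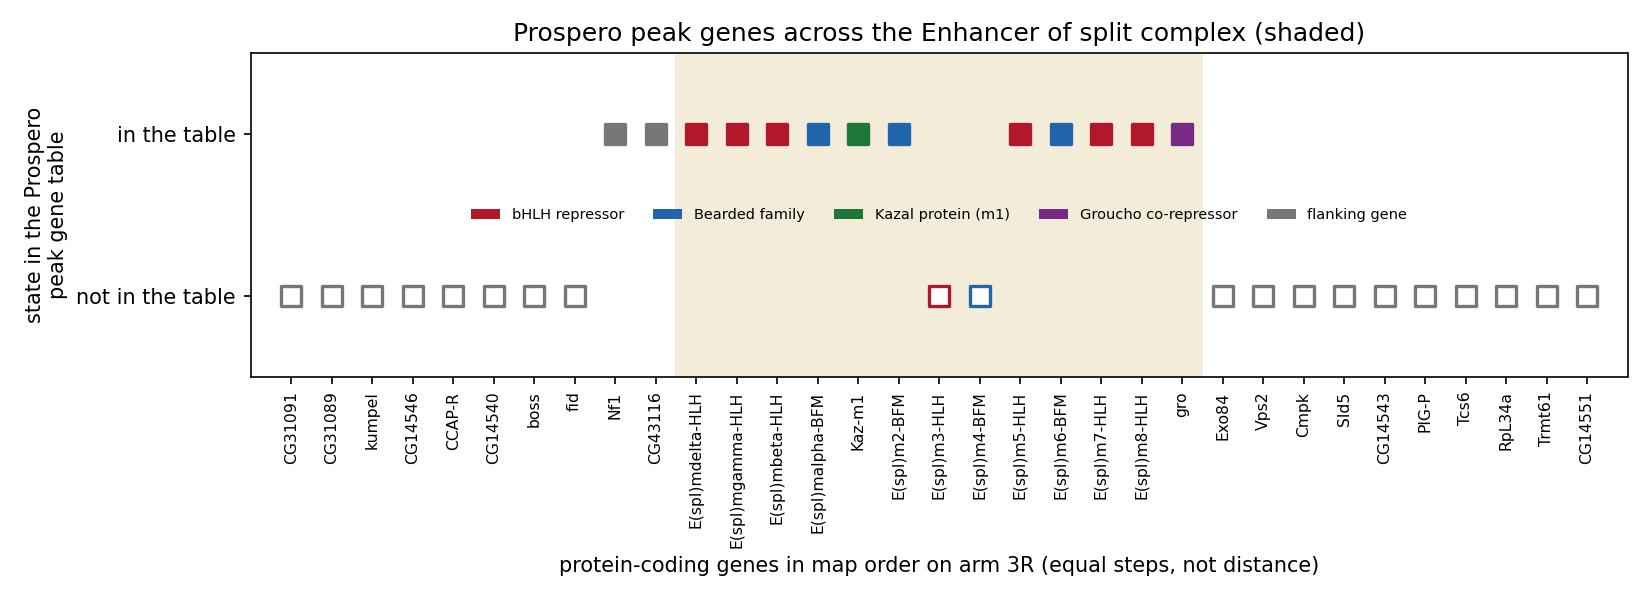
State of each protein-coding gene in the table of Prospero peak genes (vertical axis, filled squares in the table, open squares not in it) in map order on arm 3R (horizontal axis, equal steps), with 10 genes on either side of the shaded complex. The gap of 2 open squares inside the complex marks E(spl)m4-BFM next to E(spl)m3-HLH, and the filled squares run on past E(spl)mdelta-HLH to CG43116 and Nf1 but stop at gro.

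The 2 protein-coding genes of the complex that were not in the table stood side by side. With non-coding genes included, the gap widened to 3 adjacent genes, with lncRNA:CR43644 joining E(spl)m3-HLH and its neighbour E(spl)m4-BFM. The complex has 19 annotated genes in all. The other 5 of the 6 long non-coding RNA genes there were in the table, namely lncRNA:CR45037 and lncRNA:CR45038 between E(spl)mgamma-HLH and E(spl)mbeta-HLH, lncRNA:CR45039, lncRNA:CR45040 and lncRNA:CR43643. Over all annotated long non-coding RNA genes the share in the table was 16.8% (335 of 1995). The states of the bHLH genes and of the non-coding genes beside them thus followed the same stretches of the map.

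The genes next to the 2 ends of the complex differed in state. Beyond E(spl)mdelta-HLH, the next 2 protein-coding genes, CG43116 and Nf1, were in the table, and the following 8 were not. Nf1 encodes neurofibromin, a regulator of Ras. Beyond gro, none of the next 10 protein-coding genes was in the table, and the nearest that was, plum, lay 38 genes away. The annotated spans of gro and its neighbour Exo84 overlap, and of that pair gro was in the table and Exo84 was not. Across the genome, 153 overlapping pairs of protein-coding genes had both genes in the table and 402 had 1, so both were listed in 27.6% of the pairs with a listed gene. Inside the complex the overlapping pair Kaz-m1 and lncRNA:CR45040 was in the table with both genes. That pair includes a non-coding gene, and no share was computed for such pairs.

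A rule that assigns a peak to several nearby genes would list neighbours together, and the sources used here do not state the rule that made the table. Whether the states of adjacent members are separate observations of binding, and how many peaks lie behind the 6 entries, cannot be told from names. The table as a whole had many such neighbours. A protein-coding gene with neither direct neighbour in the table was itself in it in 2.83% of cases (341 of 12041), one with 1 listed neighbour in 33.7% (546 of 1619), and one with both neighbours listed in 71.3% (194 of 272). Of the bHLH members, 5 had both neighbours listed and all 5 were in the table. E(spl)m5-HLH and E(spl)m3-HLH each had 1 listed neighbour, and of these E(spl)m5-HLH was in the table. No member had 0 listed neighbours.

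**Figure D2:**
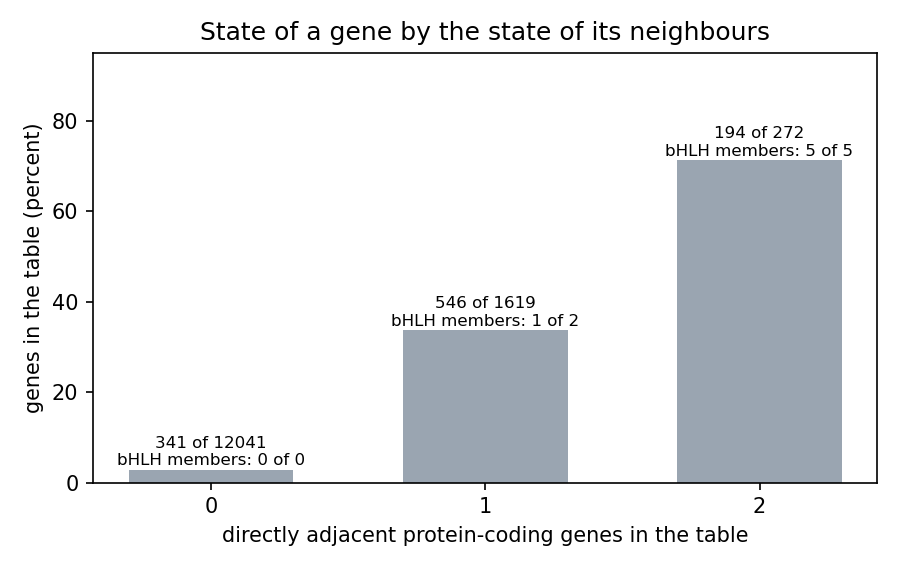
Percent of protein-coding genes in the table of Prospero peak genes (vertical axis, bars from 0) by how many of their 2 directly adjacent protein-coding genes were in it (horizontal axis). The bars stand at 2.83%, 33.7% and 71.3%, and the labels give the counts of all genes and of bHLH members, 5 of which had both neighbours listed.

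Runs of adjacent listed genes describe the same states by length, so they are no separate line of support. The 1082 listed protein-coding genes fell into 615 runs, of which 342 were single genes and 19 held 5 genes or more. The complex held parts of 2 of these 19. The run from Nf1 to E(spl)m2-BFM had 8 genes, among them E(spl)mdelta-HLH, E(spl)mgamma-HLH and E(spl)mbeta-HLH, and the run from E(spl)m5-HLH to gro had 5, among them E(spl)m7-HLH and E(spl)m8-HLH. The only longer run of protein-coding genes was one of 10 genes from Spn100A to zfh1, also on arm 3R. Among runs of at least 5 genes, the 2 runs of the complex were the only pair that followed each other with a single gap between. That gap was the 2 genes E(spl)m4-BFM and E(spl)m3-HLH. The cut of 5 genes equals the length of the shorter of these runs, and no other cut was tried. With all annotated genes in the order, the first run of the complex counted 13 genes, the same as those from lncRNA:CR44732 to CG33648 and from Spn100A to zfh1.

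**Figure D3:**
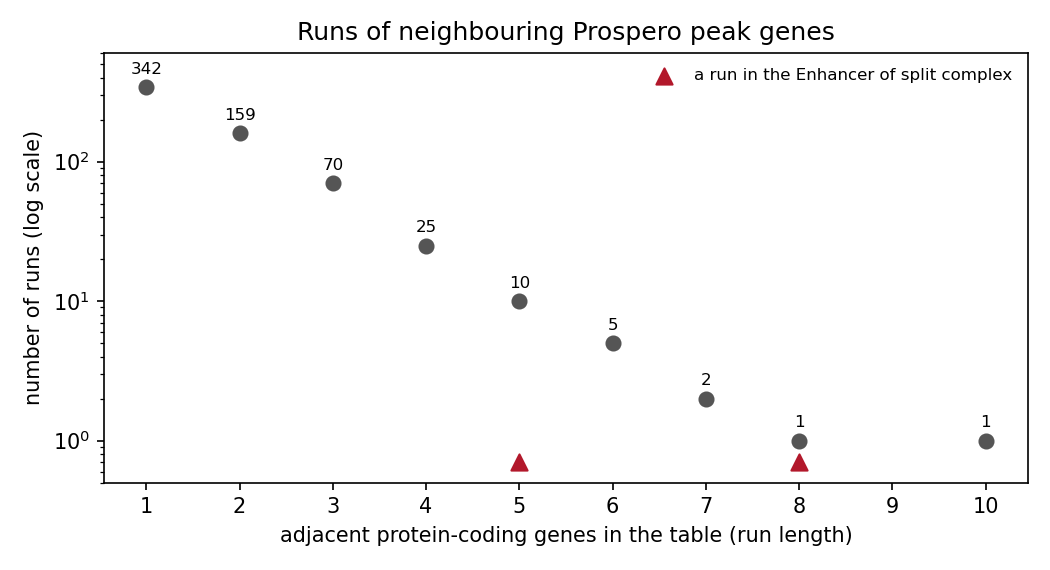
Number of runs (vertical axis, log scale) by the number of adjacent protein-coding genes in the run (horizontal axis) for the table of Prospero peak genes. Most runs were single genes (342), and the triangles mark the lengths of the runs in the complex, 5 and 8 genes.

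Relatives of the members outside the complex were listed in part. Of 5 other genes of the Hairy and Enhancer of split family, 3 were in the table. They were dpn, a repressor that keeps neuroblasts self-renewing, Hey, a Notch-responsive repressor found in newborn neurons, and Sidpn, a close relative of dpn. The segmentation gene h (hry in the RefSeq gene table) and the circadian repressor cwo were not. Hesr, a HES-related bHLH gene outside that list and named after the table was seen, was not in the table either. The map places of these relatives and the states of their neighbours were not examined here. The RefSeq gene table gives a catalogue name of the bHLH class to 41 other genes, which include the 5 and Hesr. Of these 41, 16 were in the table of peak genes, or 39.0% against 7.76% of all protein-coding genes. Myc, Clk, Mnt and sim are examples.

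The genes that the repressors act on and with were also listed in part. Of 11 proneural genes and associated factors, 6 were in the table (54.5%, against 7.76% of all protein-coding genes). They were the proneural genes l(1)sc and ato, the neural precursor factors ase and tap, the zinc finger neuroblast factor wor, and emc, which encodes a helix-loop-helix inhibitor of proneural proteins. The proneural genes ac, sc and amos, the relative cato, and da, the shared bHLH partner of the proneural proteins, were not. Classic targets of repression by the complex, ac and sc, were thus not among the entries, while l(1)sc and ase of the same proneural complex were.

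Of 25 Notch pathway genes, 8 were in the table (32.0%, against 7.76% of all protein-coding genes), gro of the complex counted among them again. The receptor gene N and the ligand gene Dl (FBgn0000463) were in it and the second ligand gene Ser was not. Of the nuclear components, mam, which encodes Mastermind, and gro were in the table, and Su(H), its antagonist H, CtBP, nej and insv were not. The 5 genes for receptor cleavage (kuz, Psn, nct, aph-1 and pen-2) were all outside the table, as were most protein-coding genes. The remaining listed genes were fng, which modifies the receptor's sugars, neur, which acts on the ligands, and numb and spdo, which act on receptor traffic and are known from asymmetric division. The Bearded-family genes of the complex, with 3 of 4 in the table, have relatives in the Brd complex on arm 3L. Of the 6 names looked up there (Brd, BobA, BobB, BobC, Tom and Ocho), 0 were found. BobB and BobC have no entry in the RefSeq gene table used. With 7.76% of all protein-coding genes in the table, 0 among so few names says little about the Brd complex. No difference between these lists was tested.

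**Figure D4:**
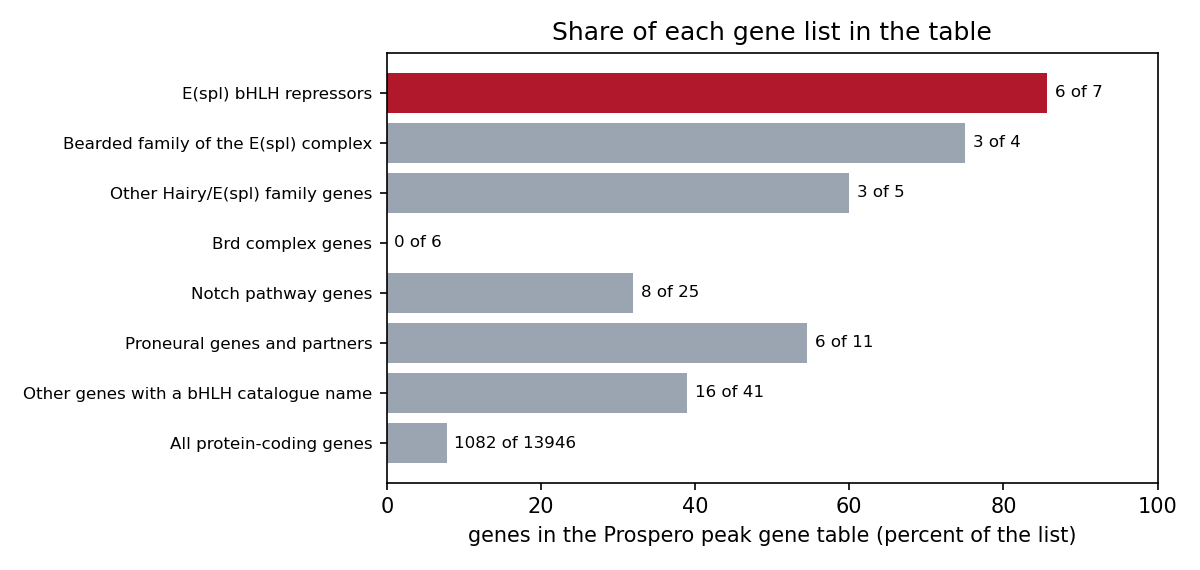
Percent of each gene list that was in the table of Prospero peak genes (horizontal axis, bars from 0, counts beside them). The bHLH repressors of the complex stand at 6 of 7 and all protein-coding genes at 1082 of 13946, and the lists in between share some genes.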

How the data were processed

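The authors deposited 1 text table of 3 columns (gene name, FlyBase identifier, symbol) with 1584 entries, of which 1512 carry a gene and 72 a transcript identifier. Per the labels, each fusion's profile was taken against Dam alone and averaged. The sources used here do not state the aligner, peak caller, threshold, peak-to-gene rule or genome build. Some entries may have been left out of the copy analysed.

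Members were matched by exact symbol in all entries. The other gene lists were also looked up by name in all entries, transcript entries included. All gene entries were matched to a RefSeq gene table (assembly Release 6 plus ISO1 MT) by current symbol (1457) or older symbol (50), or 99.7%, giving 1504 genes. Where an older symbol pointed to several genes, those whose current symbol differed from it only by case were dropped. Gene order, overlaps and spans come from that table, and no coordinates are printed. Background shares, the map of the complex, neighbours, overlaps and runs used the gene entries alone. A gene with only a transcript entry counts as not listed there. The code that finds runs was checked on a made-up gene order with known runs, and run lengths were not compared with chance. Members and lists were chosen with earlier results of these data known. The naming rule took every complex gene, the nearest listed genes and the fixed lists. The bHLH catalogue, the long non-coding genes, the runs' end genes and Nf1 and Exo84 were named after the table was seen. No test was made. Python 3.11.15, pandas 2.3.3 and matplotlib 3.10.9 were used.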

Additional observations from a re-analysis of the deposited data

How the results depend on the processing

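The count of 6 members stood in the symbol column alone, the name column alone, with older symbols allowed and with gene entries alone. E(spl)m3-HLH was outside the table in each. Each of the 6 had a gene entry with the same text in both columns, so the single-column and gene-entry settings could not lower the count. Without gro the complex counted 10 of 12 genes in the table, against 11 of 13 with it. The background share of 7.76% was 7.59% on arm 3R alone, 8.45% over all annotated genes and 4.24% among protein-coding genes no longer than the longest member. The longest run of the complex was 8 protein-coding genes, or 13 with all annotated genes, an alternative chosen after seeing the data. The look-up by identifier, the promoter motifs and the protein identities were not run, because the reference used here pairs no FlyBase identifiers with genes and holds no sequences. No paired analysis was possible because the table has no values per replicate. Depth is unknown, so a gene outside the table may be unbound or below the authors' threshold. Its peak may also have been assigned to another gene, or its entry left out of the copy analysed.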
